A study of Mus musculus with 40 samples.

Results

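Annexins are proteins that bind acidic phospholipids of membranes when calcium rises, and S100 proteins are small calcium-binding proteins, several of which dock on annexins. The mRNAs of 10 such genes (*Anxa1*, *Anxa2*, *Anxa3*, *Anxa5*, *Anxa6*, *Anxa7*, *S100a4*, *S100a6*, *S100a10*, and *S100a11*) were followed in livers that lack *Nampt* in hepatocytes, out of 55487 genes counted. The genes were selected on the difference between genotypes in these same libraries, with *Anxa5* as the gene that was raised at all days, so the genotype differences of the 10 genes, and whether each passed the threshold of the test over all genes, are given as a description and support nothing further. All 10 were among the 20297 genes that passed the filter on low counts.

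Whole livers came from female mice of the C57BL/6JBomTac background, either hepatocyte-specific *Nampt* knockout mice (HNKO), in which Cre recombinase driven by the albumin promoter acts on Nampt fl/fl alleles, or floxed WT littermates without the deletion. Mice were 9 weeks old when they were placed on a purified control diet for 3, 6, 12, or 21 days. The sample labels list these days as the age. Albumin-driven Cre acts in the hepatocyte lineage, so cells outside that lineage keep *Nampt*, and whole liver mixes both. Whether cholangiocytes and oval cells keep *Nampt* was not tested. There were 5 HNKO and 5 WT libraries at day 3, 5 and 4 at day 6, 6 and 5 at day 12, and 3 and 5 at day 21, each from 1 liver.

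A further 2 HNKO livers of day 21 (libraries 17 and 18) failed the quality control of the study and entered no comparison. Total counts of the 38 libraries used ranged from 16151037 to 64181492. *Nampt* was lower in HNKO by 0.93, 0.90, 0.82, and 0.69 on the log2 scale at the 4 days, the last of these not called (adjusted p = 0.161, edgeR), and lay below every WT liver of the day in 5 of 5, 4 of 5, 6 of 6, and 3 of 3 HNKO livers. Some HNKO livers stood apart from the others of their day in several of the genes, namely libraries 4 of day 3, 6 of day 6, and 38 of day 21 at the low end and libraries 23 of day 3, 29 of day 6, and 37 of day 21 at the high end, and where leaving 1 of them out changed a call of its day, the value without it is given.

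Annexin A2 forms a complex with S100A10 at the inner face of the plasma membrane, annexin A1 pairs with S100A11, and S100A6 is known to bind several annexins. Annexin A5 binds exposed phosphatidylserine and is widely used as a stain for dying cells. In the liver several of these genes are used as marks of ductular cells, activated stellate cells, and leukocytes, whereas others are active in hepatocytes. In whole liver a change in the number of cells of a type and a change in RNA per cell cannot be told apart.

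Of the 10 genes, 5 lie on chromosome 3 (GRCm38). *S100a4* (chr3:90603771-90606045, plus strand) and *S100a6* (chr3:90612882-90624181, plus strand) are 6836 bases apart, and *S100a11* (chr3:93520488-93526287, plus strand) and *S100a10* (chr3:93555080-93564643, plus strand) are 28792 bases apart. *Anxa5* (chr3:36448923-36475894, minus strand) lies elsewhere on it. *Anxa1* (chr19:20373428-20390944, minus strand), *Anxa2* (chr9:69453620-69491795, plus strand), *Anxa3* (chr5:96793339-96845966, plus strand), *Anxa6* (chr11:54979108-55033445, minus strand), and *Anxa7* (chr14:20455260-20480133, minus strand) are spread over the genome.

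The 150 bases before the annotated start of the 4 genes that were raised at 2 or more days and for which RefSeq (GRCm38.p6) gave such a window are shown here. Capitals mark matches to the AP-1 motif TGANTCA, which reads alike on both strands. The windows are chr9:69453470-69453619 for *Anxa2*, chr3:93520338-93520487 for *S100a11*, chr3:36475895-36476044 for *Anxa5* (minus strand), and chr3:90612732-90612881 for *S100a6*.
Anxa2: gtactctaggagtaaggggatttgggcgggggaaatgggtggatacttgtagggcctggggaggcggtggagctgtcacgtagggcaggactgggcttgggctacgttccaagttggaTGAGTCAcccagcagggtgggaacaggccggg
S100a11: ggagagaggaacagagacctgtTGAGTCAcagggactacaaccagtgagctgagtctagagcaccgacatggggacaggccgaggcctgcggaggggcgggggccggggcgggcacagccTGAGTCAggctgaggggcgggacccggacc
Anxa5: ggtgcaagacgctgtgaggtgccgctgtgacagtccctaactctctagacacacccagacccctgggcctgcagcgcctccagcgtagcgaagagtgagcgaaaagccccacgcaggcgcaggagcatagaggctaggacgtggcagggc
S100a6: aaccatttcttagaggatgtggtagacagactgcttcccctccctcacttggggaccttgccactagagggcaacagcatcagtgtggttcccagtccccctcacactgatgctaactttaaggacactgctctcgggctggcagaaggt
*S100a11* held 2 matches and *Anxa2* held 1, and the windows of *Anxa5* and *S100a6* held none of these letters. RefSeq promoters of 300 bases (250 before and 50 after the start) were given for 7 of the 10 genes, in 8 entries, and the AP-1 letters were in 2 of the 8 and in 7.81% of all 32851 promoters. The GC box GGGCGG, searched on both strands, was in 4 of the 8 and in 35.7% of all. The TATA box TATAAA was in 3 (13.6% of all), the TEAD motif GGAATG in 1 (14.7%), and the CArG box in 1, that of *Anxa5* (1.63%). Promoters of *Anxa3*, *Anxa6*, and *S100a10* were not used here.

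In WT liver the 10 genes spanned a wide range of levels per length, given as reads per kilobase of exon in a library scaled to CPM (RPKM, mean ± SD over 19 WT livers). *S100a10* stood at 66.5 ± 18.7 and *Anxa6* at 52.0 ± 4.62, and the ranges of this pair overlapped. *Anxa5* followed at 41.2 ± 4.39, overlapping *Anxa6*, and *Anxa7* at 16.1 ± 2.07, with no overlap with *Anxa5*. *Anxa2* had 3.68 ± 0.593, which overlapped neither *Anxa7* nor the next gene, *Anxa3* (1.85 ± 0.327). *S100a11* (1.62 ± 0.651), *Anxa1* (1.33 ± 0.383), *S100a6* (0.942 ± 0.609), and *S100a4* (0.284 ± 0.253) were the lowest, and each overlapped its neighbour in this order. Over the 19 HNKO livers *Anxa5* had 88.5 ± 34.7, the highest mean of the 10, and *Anxa2* 9.97 ± 5.34, while *S100a10* (67.2 ± 16.96) and *Anxa6* (49.98 ± 3.71) had means close to those of WT.

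**Figure D1:**
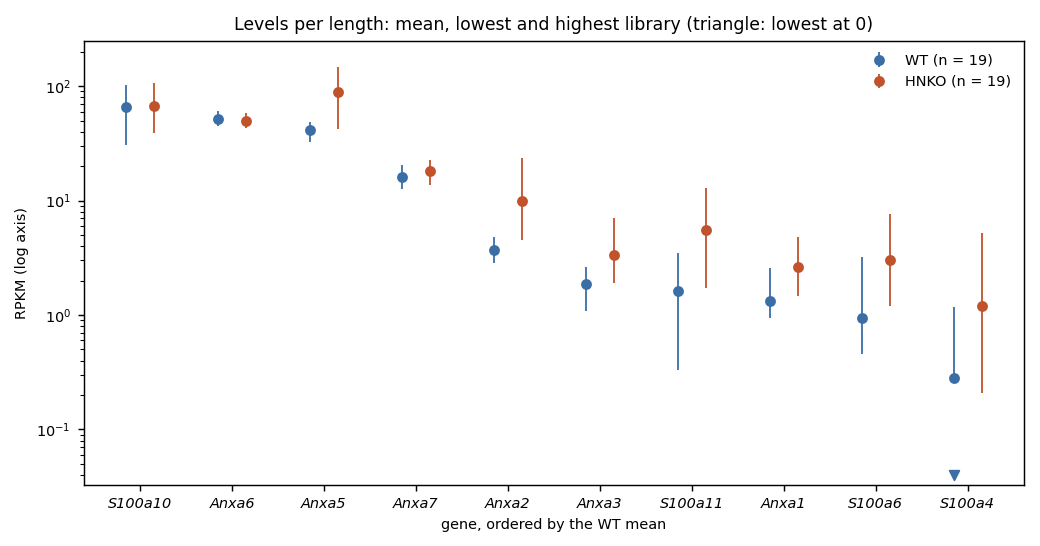
Mean level per exon length in 19 WT (blue) and 19 HNKO (orange) livers on a log axis, with bars from the lowest to the highest liver and a triangle where the lowest liver had 0 counts. *S100a10* and *Anxa6* have nearly the same mean in both genotypes, whereas *Anxa5*, *Anxa2*, and the low genes on the right have higher means in HNKO.

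Of the 10 genes, 7 were called higher in HNKO at 1 or more days (adjusted p under 0.05 in edgeR's quasi-likelihood test over all tested genes). At day 3 these were *Anxa2*, *Anxa5*, and *S100a11*, 3 of 10, where 2.95% of all tested genes were called higher. At day 6 there were 7 of 10 (8.42% of all genes), with *Anxa6*, *Anxa7*, and *S100a10* the exceptions. At day 12 there were 4 (*Anxa2*, *Anxa3*, *Anxa5*, and *S100a6*; 4.56%), and at day 21 there were 2 (*Anxa1* and *Anxa5*; 2.21%). The number called lower was 0 at each day, against 1.71%, 4.37%, 3.27%, and 0.916% of all genes. *Anxa5* was the 1 member called at all 4 days, as were 0.823% of all genes. Every HNKO liver was above every WT liver for 0 of the 10 genes at day 3 (2.31% of all genes), 7 at day 6 (8.08%), 4 at day 12 (2.65%), and 7 at day 21 (7.25%). Because the genes were selected on these contrasts, nothing is read from how their counts compare with these percentages. The median log2 fold change of the 10 genes was 0.76, 1.31, 0.92, and 1.22 at the 4 days, and that of all tested genes was 0.01, -0.01, 0.00, and -0.01.

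**Figure D2:**
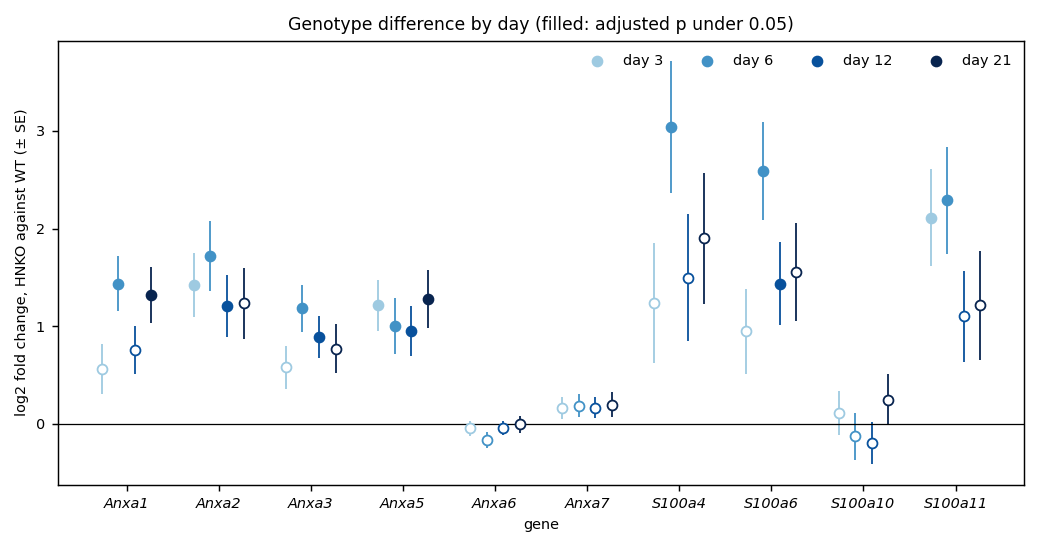
Log2 fold change of HNKO against WT (± SE) for each gene at days 3, 6, 12, and 21, light to dark, with filled points where the adjusted p was under 0.05 in the fit over all genes. *Anxa6*, *Anxa7*, and *S100a10* lie between -0.20 and 0.25 at every day, and *S100a4* at day 6 is the highest point (3.04).

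*Anxa5* had 6.15, 6.23, 6.24, 6.28, and 6.40 log2 CPM (each count as a share of the TMM-scaled library, on the log2 scale) in the WT livers of day 3 and 6.23, 6.61, 7.65, 8.003, and 8.01 in the HNKO livers. Libraries 2, 3, and 23 of HNKO were far above WT, library 4 was somewhat above, and library 22 lay within WT. At day 6 the WT livers had 6.09, 6.19, 6.30, and 6.42 and the HNKO livers 6.70, 6.79, 7.07, 7.24, and 8.04, with no overlap. At day 12 WT had 5.87, 6.08, 6.25, 6.27, and 6.38, and the 6 HNKO livers ran from 6.36 over a median of 7.11 to 7.63, so that the lowest HNKO liver reached the WT range. At day 21 WT had 5.86, 6.02, 6.12, 6.13, and 6.28 and HNKO had 6.88, 7.14, and 7.88, again without overlap. The log2 fold changes were 1.21 (SE 0.27), 1.0004 (SE 0.28), 0.95 (SE 0.25), and 1.28 (SE 0.30). Without library 37 the change at day 21 was 0.95 and was no longer called. Without library 29, or without WT library 10, that at day 6 was 0.74 or 0.95 and was not called, and at day 12 the call was lost without HNKO library 12 (0.83), HNKO library 13 (0.86), or WT library 33 (0.88).

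*Anxa2*, whose product tethers membranes to actin and, with S100A10, binds plasminogen and its activator, had 3.71, 3.88, 3.91, 4.04, and 4.18 log2 CPM in WT at day 3 and 4.09, 4.203, 5.31, 5.99, and 6.12 in HNKO. Libraries 4 and 22 were again the low HNKO livers, and only library 4 was inside the WT range. At day 6 WT had 3.44, 3.70, 4.03, and 4.11 and HNKO had 4.45, 4.84, 5.55, 5.68, and 6.45. At day 12 WT had 3.52, 3.58, 3.59, 3.67, and 3.87, and HNKO ran from 4.37 over 4.78 to 5.32. The groups did not overlap at either day. At day 21 WT had 3.41, 3.63, 3.64, 3.76, and 3.95 and HNKO had 4.12, 4.42, and 5.69, where library 37 was far above the other two. The log2 fold changes were 1.43 (SE 0.33), 1.72 (SE 0.36), 1.21 (SE 0.32), and 1.23 (SE 0.37), the last of these not called. Without library 37 the value at day 21 was 0.61, and without library 38 or 40 it was 1.53 or 1.45 and was called. The call at day 3 was lost without library 2 (1.22) or 23 (1.17).

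*S100a10*, which encodes the partner of annexin A2, was not called at any day. At day 6 it had 5.85, 6.32, 6.504, and 6.64 log2 CPM in WT and 5.88, 6.09, 6.22, 6.44, and 6.45 in HNKO, and the groups overlapped at all 4 days. Its log2 fold changes were 0.11 (SE 0.23), -0.13 (SE 0.24), -0.20 (SE 0.22), and 0.25 (SE 0.26). These errors leave room for changes of either sign, and without TMM scaling the value at day 6 was 0.08. The ratio of *Anxa2* to *S100a10*, from levels per length, had a median of 0.0568 in WT (0.0365 to 0.109 over 19 livers) and 0.129 in HNKO (0.0561 to 0.326).

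**Figure D3:**
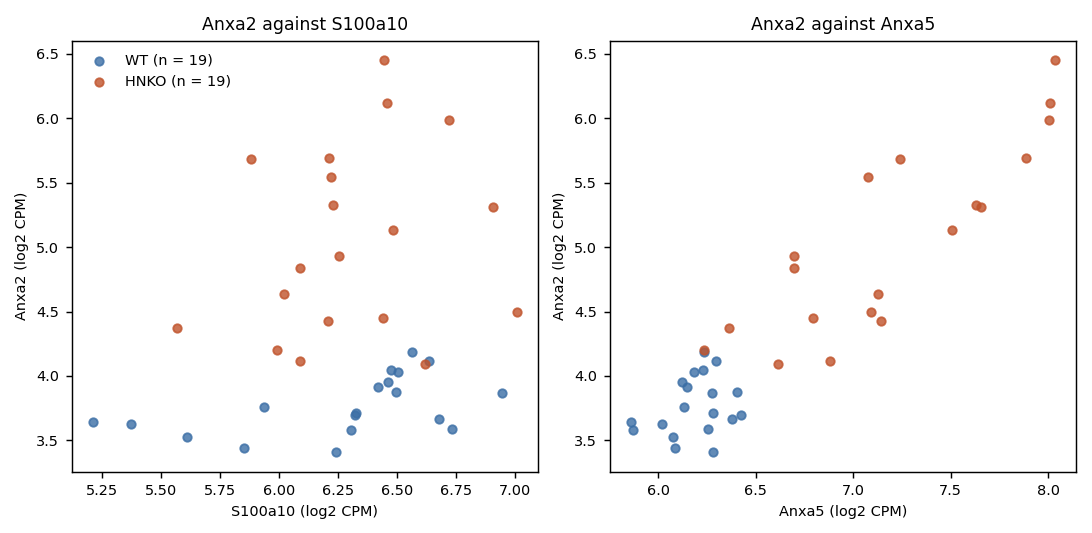
Log2 CPM of *Anxa2* (vertical axes) against *S100a10* (left) and *Anxa5* (right) in 19 WT (blue) and 19 HNKO (orange) livers, 1 point per liver. HNKO livers are spread upward in *Anxa2* over the same range of *S100a10*, whereas *Anxa2* and *Anxa5* rise together from liver to liver.

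*Anxa1*, a target of glucocorticoids whose product acts on formyl peptide receptors to limit leukocyte entry, had 1.68, 1.77, 1.82, and 1.82 log2 CPM in WT at day 6 and 2.44, 2.63, 3.19, 3.39, and 3.83 in HNKO. At day 21 it had 1.603, 1.65, 1.70, 1.99, and 2.15 in WT and 2.55, 3.04, and 3.61 in HNKO. Every HNKO liver of these days, and of day 12, was above every WT liver, while at day 3 the groups overlapped. The log2 fold changes were 0.56 (SE 0.26), 1.43 (SE 0.28), 0.76 (SE 0.25), and 1.32 (SE 0.29), called at days 6 and 21. Without library 37 that of day 21 was 1.01 and was not called, and without WT library 14 that of day 12 was 0.86 and was called.

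*Anxa3* had 2.58, 2.69, 2.71, and 2.90 log2 CPM in WT at day 6 and 3.24, 3.65, 3.75, 3.75, and 4.68 in HNKO, and the groups did not overlap at days 6, 12, and 21. Its changes were 0.58 (SE 0.22), 1.18 (SE 0.24), 0.89 (SE 0.22), and 0.77 (SE 0.25), called at days 6 and 12. At day 3 it was called without library 4 (0.72) or 22 (0.70), the HNKO livers with the lowest *Anxa3* of that day.

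*S100a11*, the partner of annexin A1, was a low gene, with 11, 18, 22, 23, and 25 counts in WT at day 3 and 29, 45, 91, 95, and 183 in HNKO. At day 6 it had 4, 18, 20, and 21 counts in WT and 30, 63, 66, 176, and 239 in HNKO. The groups overlapped at day 3 on the log2 CPM scale, where library 22 was within WT, and did not at day 6. The log2 fold changes were 2.11 (SE 0.50), 2.29 (SE 0.55), 1.10 (SE 0.47), and 1.21 (SE 0.56), called at days 3 and 6, and the call at day 3 was lost without library 2 (1.73). For its neighbour on the chromosome, *S100a10*, the groups overlapped at these days.

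*S100a6* had -0.34, -0.32, 0.00, and 0.63 log2 CPM in WT at day 6 and 1.49, 1.89, 2.48, 2.76, and 3.39 in HNKO. The lowest HNKO liver was above the highest WT liver at days 6, 12, and 21, and at day 3 WT library 26 (2.16) reached into the HNKO range. The changes were 0.95 (SE 0.43), 2.59 (SE 0.50), 1.44 (SE 0.42), and 1.55 (SE 0.50), called at days 6 and 12. Without WT library 26 the change at day 3 was 1.61 and was called. The call at day 12 was lost without HNKO library 35 (1.06) and without WT library 15 (1.38), 16 (1.35), or 33 (1.42).

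*S100a4*, a gene of fibroblasts and leukocytes, was near the limit of detection. It had 1, 4, 4, and 5 counts in the WT livers of day 6 and 12, 19, 24, 41, and 132 in the HNKO livers, with no overlap. It met the count level of the filter in 1 of 19 WT and 13 of 19 HNKO livers, where 3 livers were needed, so it entered the test through the genotype in which it was high. The log2 fold changes were 1.24 (SE 0.62), 3.04 (SE 0.68), 1.49 (SE 0.65), and 1.90 (SE 0.67), called at day 6. Without WT library 26, which had 17 counts, that of day 3 was 2.32 and was called.

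*Anxa6* and *Anxa7*, both abundant, had smaller differences. *Anxa7* had log2 fold changes of 0.16 to 0.20 at the 4 days, with SE of 0.11 to 0.13. At day 21 its 3 HNKO livers (6.79 to 6.85 log2 CPM) were all above the 5 WT livers (6.56 to 6.69), and the groups overlapped at the other days. Under plain library totals without TMM the log2 fold change of *Anxa7* was 0.41 at day 6 and 0.36 at day 12, and both were called. *Anxa6* had -0.04, -0.17, -0.04, and 0.00, with SE of 0.07 to 0.09, and without TMM these became 0.13, 0.04, 0.15, and 0.20, so its sign depended on the scaling. At an unadjusted p under 0.05, 1 of the 10 genes was lower at day 6 (11.7% of all genes were) and 0 at days 3, 12, and 21 (9.35%, 11.3%, and 7.63%).

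**Figure D4:**
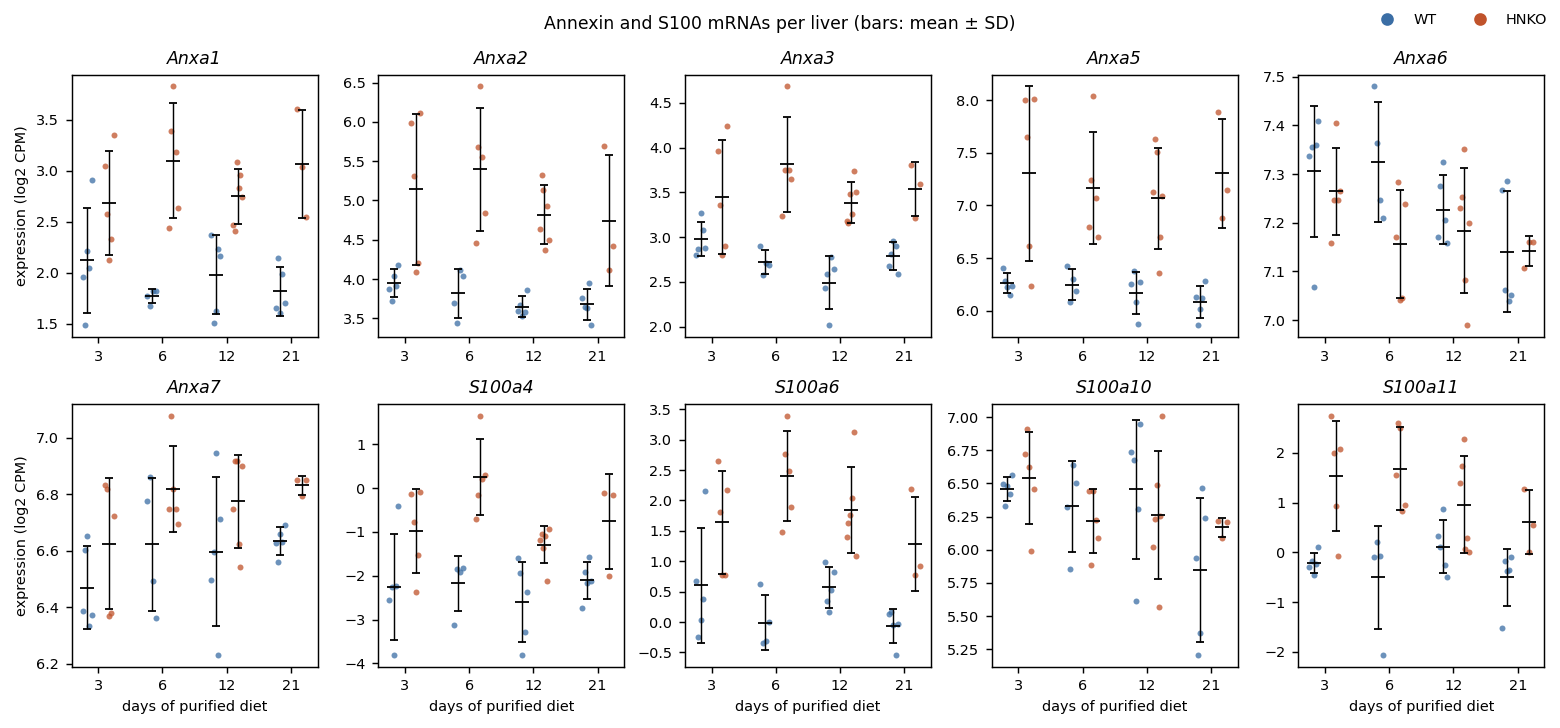
Log2 CPM of each gene in every WT (blue) and HNKO (orange) liver at days 3, 6, 12, and 21 of purified diet, with the mean and SD in black and a separate vertical scale for each gene. HNKO livers are above all WT livers for 7 genes at day 6, 4 at day 12, and 7 at day 21, and the genotypes overlap for all 10 at day 3.

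Reads of some genes could be shared with other annotated genes, those that overlap at the same position included. Of all stretches of 51 bases, the read length, 47.3% in *S100a4* and 41% in *S100a11* also occur in transcripts of other genes (1 and 3), against 1.33% in *Anxa2*, 1.77% in *Anxa3*, and 0% in the other 6. *S100a4* shares 302 exon bases with a protein-coding gene on its strand, which had a median of 0 counts. *Anxa2* shares 98 bases with an antisense gene (median 6 counts) and *Anxa3* 112 with a gene on its strand (median 12.5 counts). The values of *S100a4* and *S100a11* are uncertain to that extent.

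Whether the levels moved with the days was tested within each genotype. These day contrasts did not select the genes. The genotype contrasts that did used the same livers, so the day tests are not free of that selection. In WT 0 of the 10 genes had a day effect (5.84% of all genes did), and 0 had an unadjusted p under 0.05 (21.2% of all genes did). In HNKO 1 of 10 did, against 7.9% of all genes. This was *S100a4*, whose fitted level in HNKO differed by -1.95 on the log2 scale between day 12 and day 6 (SE 0.51). Since *S100a4* entered the test through these HNKO livers, its day effect is a description and no p-value is given for it. The gene lost its day effect in 23 of 38 fits that left out 1 library, library 29 of day 6 with 132 counts among them, and when every gene with a count was tested. A genotype difference that itself changed with the day was found for 0 of all genes (0%) and 0 of the 10 by edgeR. At an unadjusted p under 0.05 there were 966 (4.76%) and 0. This test compares the genotype differences that selected the genes, so its counts for the 10 are a description.

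How the levels varied from liver to liver within the groups was described for the 7 genes that were called and the other 3, a split that rests on the contrasts that selected the genes. Of deviations of log2 CPM from the group means over 38 livers, the 21 pairs among these 7 genes had Pearson correlations of 0.30 to 0.86 (median 0.53), and the other 24 pairs had a median of 0.05. *Anxa2* and *Anxa5* had r of 0.86, *Anxa2* and *Anxa3* 0.78, and *Anxa1* and *S100a6* 0.77. *Anxa2* and *S100a10* had 0.24. Among the other pairs, *Anxa7* had r of 0.62 with *S100a11* and 0.54 with *Anxa5*. The median over the 21 pairs was 0.74 in the 19 HNKO livers and 0.10 in the 19 WT livers, and that over the other 24 pairs was 0.24 in HNKO and 0.05 in WT. Without *S100a4*, whose WT counts are few, the median over the remaining 15 pairs was 0.81 in HNKO and 0.01 in WT. *Anxa2* and *Anxa5* had r of 0.91 in HNKO and 0.10 in WT. These values come from the same libraries, which share their depth and scaling, and are a description.

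**Figure D5:**
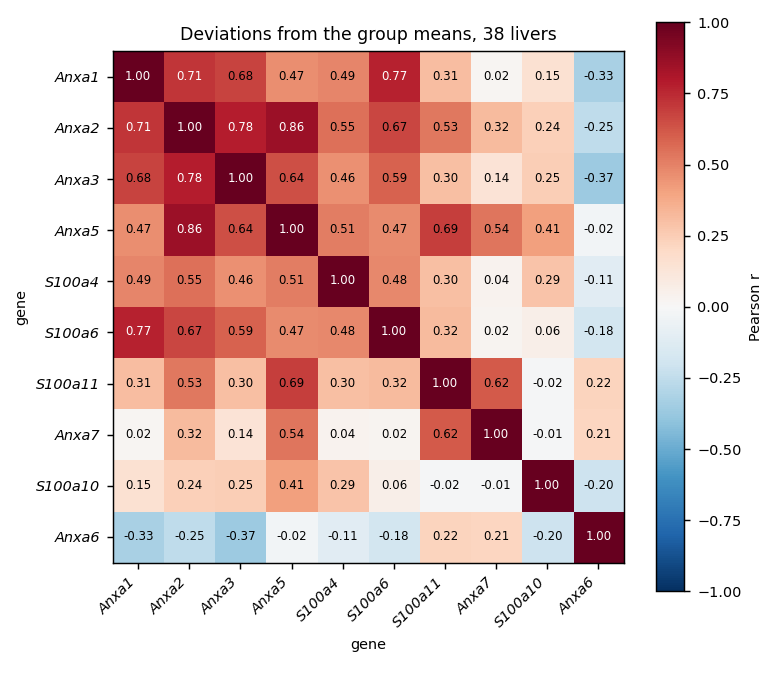
Pearson r between genes of log2 CPM deviations from the group means over 38 livers, red for positive and blue for negative values. The 7 called genes form the red block at the upper left (0.30 to 0.86), and *S100a10* and *Anxa6* are pale or blue against most of them.

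The order of the livers within each group was compared over the 7 called genes. Library 29 had the highest value of its group for 6 of the 7 called genes, library 37 for 7 of 7, and library 23 for 5 of 7, whereas library 4 was lowest for 5, library 6 for 5, and library 38 for 6. In WT, library 26 of day 3 was highest for 5 of 7, and library 10 of day 6 was lowest for 5. Without any 1 of these 8 livers the median r over the 21 pairs was 0.69 to 0.74 in HNKO. Without all 8 it was 0.51 in the remaining 13 HNKO livers, 0.02 in the remaining 17 WT livers, and 0.32 over all 30, a comparison chosen after the data were seen.

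Of the 5 tested genes whose deviations followed *Anxa5* most closely over the 38 livers, 4 were *Nid1*, a basement membrane protein (r = 0.92), *Ywhah*, a 14-3-3 protein (0.92), *Ifi27l2b* (0.90), and *Asah1*, the acid ceramidase of lysosomes (0.88). Of the 5 that followed *Anxa2* most closely, 4 were *Nid1* (0.91), *Fstl1* (0.90), *Arhgef2* (0.90), and *Fbn1*, a fibrillin of the extracellular matrix (0.90). The remaining gene, not reported here, had the highest r with *Anxa2* (0.92).

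Markers of other liver cells also differed between the genotypes. At days 3, 6, 12, and 21, 2.95%, 8.42%, 4.56%, and 2.21% of all tested genes were called higher. The shares called lower were 1.71%, 4.37%, 3.27%, and 0.916%. Of 9 tested markers of cholangiocytes and oval cells, 7, 7, 6, and 5 were called higher in HNKO at days 3, 6, 12, and 21. Their summed level at day 6 was 42.5 to 56.5 CPM in WT and 177 to 769 CPM in HNKO. Of 11 stellate cell and fibroblast markers, 5, 6, 4, and 5 were called higher and 1 lower, at day 12, with a sum at day 6 of 539 to 579 CPM in WT and 725 to 1517 CPM in HNKO. Of 11 Kupffer cell and macrophage markers, 5, 7, 5, and 4 were called higher and 0 lower, with *Gpnmb*, *Ccr2*, *Cx3cr1*, and *Trem2* higher at all 4 days, although their sum overlapped between the genotypes at each day (369 to 483 CPM in WT and 475 to 703 CPM in HNKO at day 6). *Gpnmb* was 13.1, 27.2, 9.88, and 9.43 times higher at the 4 days. Log2 fold changes were above 0 for 7 of the 11 macrophage markers at day 3 and for all 11 at later days. Their medians were 0.49, 0.88, 0.66, and 0.37. Of 6 tested neutrophil markers, 0, 5, 2, and 1 were called higher, with sums at day 6 of 4.17 to 6.19 CPM in WT and 14.3 to 43.7 CPM in HNKO. At the same day endothelial sums overlapped (712 to 771 and 650 to 763 CPM), and hepatocyte sums were lower in HNKO, with 57953 to 105270 against 118660 to 136450 CPM. Among 10 hepatocyte markers, 0, 2, 0, and 0 were called lower at the 4 days and 0 higher. *Alb* made up most of the hepatocyte sum (85187211 counts in all, against 7324121 for *Cps1*, the next). Lymphocyte sums were 41.2 to 51.0 CPM in WT and 63.0 to 128 CPM in HNKO, and mesothelial sums overlapped (1.9 to 4.98 and 3.53 to 12.3 CPM). At days 3, 12, and 21 the cholangiocyte and oval cell sums again did not overlap, and the lymphocyte sums did not at day 21. Single genes with every HNKO liver above every WT liver were 2.31%, 8.08%, 2.65%, and 7.25% of all tested genes at the 4 days. The hepatocyte, stellate cell, macrophage, neutrophil, endothelial, and mesothelial sums of both genotypes overlapped at days 3, 12, and 21, with hepatocyte sums at day 3 of 118950 to 130420 CPM in WT and 68577 to 123230 CPM in HNKO.

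Within groups, deviations of the cholangiocyte and oval cell sum had an r of 0.89 with *Anxa2*, 0.86 with *Anxa5*, 0.77 with *Anxa3*, 0.57 with *Anxa1*, and 0.28 with *S100a10* over 38 livers. The stellate cell and fibroblast sum had 0.85 with *Anxa2*, 0.78 with *Anxa5*, 0.67 with *Anxa1*, 0.08 with *S100a10*, and -0.14 with *Anxa6*. The lymphocyte sum had 0.68 with *Anxa2*, 0.68 with *S100a4*, and 0.62 with *Anxa1*, and the neutrophil sum 0.73 with *Anxa5*, 0.66 with *S100a11*, and 0.65 with *Anxa2*. The hepatocyte sum had -0.70 with *Anxa2*, -0.68 with *Anxa3*, and -0.54 with *Anxa5*. The mesothelial sum had 0.54 with *S100a6* and 0.51 with *Anxa1*, and the endothelial sum 0.09 with *Anxa5* and -0.13 with *Anxa2*. The Kupffer cell and macrophage sum ran from -0.27 with *Anxa6* to 0.35 with *Anxa5* over the 10 genes, with 0.29 for *Anxa2*. Library 29 had the highest cholangiocyte (769 CPM), stellate cell (1517 CPM), and neutrophil (43.7 CPM) sums of day 6, and library 37 the highest cholangiocyte (503 CPM) and stellate cell (1362 CPM) sums of day 21. The part of these cells in the values of the 10 genes was not tested.

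Of the other genes of both families, 3 calls were made over the 4 days, all for S100 genes. Of 6 other annexins listed, 4 were tested and 0 were called at any day by edgeR, with 2 at day 6 and 1 at day 12 at an unadjusted p under 0.05 (26.6% and 24.5% of all genes), and 0 calls by DESeq2. *Anxa4*, a close relative of *Anxa5*, had log2 fold changes of 0.16, 0.21, 0.13, and 0.13. Of 12 other S100 genes 6 were tested, of which 0, 2, 1, and 0 were called higher at the 4 days (2.95%, 8.42%, 4.56%, and 2.21% of all genes) and 0 lower. At an unadjusted p under 0.05 there were 1, 2, 4, and 2 of the 6 (20.9%, 26.6%, 24.5%, and 18% of all genes). *S100a8* and *S100a9*, the calprotectin pair of neutrophils, rose at day 6 by log2 fold changes of 3.53 (SE 0.63, adjusted p = 0.000395) and 3.49 (SE 0.56, adjusted p = 0.000134), and *S100a9* also at day 12 (1.59, SE 0.49, adjusted p = 0.0417, edgeR). Both were low in WT, with means of -1.31 and -0.56 log2 CPM at day 6. The neutrophil sum moved with them, and its part was not tested.

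Of 16 tested genes for binding partners and receptors, 4, 6, 3, and 2 rose at the 4 days (2.95%, 8.42%, 4.56%, and 2.21% of all genes) and 1 fell, at day 3 (1.71%). The cholangiocyte and oval cell sums were higher in the same HNKO livers at each day, as given above, and their part in these values was not tested. *Plat*, the tissue plasminogen activator that annexin A2 and S100A10 bind, rose at all 4 days, by 2.29 (SE 0.57), 2.59 (SE 0.65), 1.77 (SE 0.55), and 2.78 (SE 0.63). *Plaur*, the urokinase receptor, rose at day 6 by 2.19 (SE 0.38, adjusted p = 0.000293, edgeR) and at day 12 by 1.28. *Ahnak*, a large scaffold bound by annexin A2 and S100A10, rose at day 6 (1.15, SE 0.26), *Myh9*, the non-muscle myosin bound by S100A4, at day 3 (0.62) and day 6 (0.83), and *Src* at day 3 (0.97) and day 6 (0.98). *Cftr*, a chloride channel that is also among the cholangiocyte markers, rose at all 4 days, by 2.57 to 3.59. Its WT means at the 4 days were -1.39, -1.64, -1.95, and -1.98 log2 CPM, and 1 liver had 0 counts. WT means were -0.19, -0.67, -0.49, and -0.77 for *Plat* and -0.13, -0.19, -0.43, and -0.62 for *Plaur*. The changes of these genes thus rest on low WT counts. *Pdcd6*, a calcium-binding partner of annexins, fell by 0.29 at day 3 (SE 0.09, adjusted p = 0.0426, edgeR).

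Of 15 tested genes of membrane repair and calcium-activated proteases, 2, 3, 2, and 1 rose, against the same 2.95%, 8.42%, 4.56%, and 2.21% of all genes, and 0 fell (1.71%, 4.37%, 3.27%, and 0.916%). The cholangiocyte and oval cell sums were above WT at each day, and at day 6 so were the stellate cell, neutrophil, and lymphocyte sums, while the hepatocyte sums were below, and the part of these cells in the values was not tested. *Myof*, a ferlin that acts in membrane fusion, rose at all 4 days, by 0.97 (SE 0.23), 1.44 (SE 0.26), 0.99 (SE 0.23), and 1.02 (SE 0.26). *Ehd2*, which coats the necks of caveolae, rose at day 3 (0.91), day 6 (1.57), and day 12 (0.90). *Capn1*, a calpain, rose at day 6 (0.43, SE 0.13, adjusted p = 0.0254, edgeR).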

How the data were processed

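Stranded libraries of rRNA-depleted RNA from 40 whole livers were read from both ends over 51 bases. Per the labels and methods, the authors aligned reads with STAR 2.7.2b to GRCm38, counted fragments with both ends aligned on GENCODE genes with featureCounts 1.6.4, and deposited raw counts per gene. The strand setting of the counting is not given in the sources used here.

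The 10 genes and all lists were chosen with earlier results of these data known. Groups came from the labels, and the 2 libraries described as failing quality control were left out. The genes tested were those kept by filterByExpr (minimum count 10, total 15, proportion 0.7; 20297 of 55487 genes). After TMM scaling, a model with a separate mean for every combination of genotype and day was fitted in edgeR 4.0.16 (R 4.3.3, legacy computation), quasi-likelihood test, Benjamini-Hochberg adjustment over all tested genes. SE is the log2 fold change over the root of F. Log2 CPM used a prior count of 2. Levels per length used exon lengths of GENCODE release M21 (GRCm38). Values are named for the 10 genes, for list genes called at 1 or more days, *Anxa4*, *Nampt*, and the 5 genes most like *Anxa5* and *Anxa2*, of which 1 gene is not reported here. *Anxa4* was chosen after its values were seen. Matching symbols were found for 55094 genes.

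The fit was first checked on simulated counts. Within-group pairs of libraries (74) differed by a chi-square of at least 12.34 per gene, so no library was a copy. Each library was taken as 1 liver, with totals of 16151037 to 64181492 counts, and precision was limited by these and by 3 to 6 livers a group. Alternatives were DESeq2 1.42.0, its size factors, no count filter, all 40 libraries, single-day fits, the newer edgeR computation, a covariate for library numbers up to 21 or from 22 (each range runs through the 4 days, and no label calls them batches), each library left out, and, added after seeing that TMM factors differed between genotypes (median 0.948 in WT and 1.042 in HNKO), no TMM. At day 21 the HNKO livers used all had numbers from 22, whereas WT livers had both.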

Additional observations from a re-analysis of the deposited data

Results flagged for a closer look

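Of 70 groups of 4 or more livers examined, 5 held a liver far from the rest of its group, where chance flags a share of about 0.05. *Anxa6* in WT library 24 of day 3 was low (7.07 log2 CPM, nearest 7.34). *S100a4* was low in WT library 8 of day 6 (-3.12, nearest -1.91) and in HNKO library 35 of day 12 (-2.11, nearest -1.36). *S100a11* was low in WT library 28 of day 6 (-2.06, nearest -0.09) and in WT library 19 of day 21 (-1.52, nearest -0.37). These *S100a4* and *S100a11* values rest on 1 to 7 counts.

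The 2 HNKO livers of day 21 that failed quality control held levels above all WT livers of the day. In library 18 these were *Anxa1* (3.44 log2 CPM), *Anxa2* (5.23), *Anxa3* (3.69), *Anxa5* (7.48), *Anxa7* (6.94), *S100a4* (0.42), and *S100a11* (1.85). In library 17 these were *Anxa2* (5.08), *Anxa5* (6.501), and *S100a6* (3.59), while *S100a4* and *S100a11* had 0 counts and *Anxa1* had 1. In that library *Anxa7* (6.51) and *S100a10* (4.97) were also below all WT livers, and *Anxa3* (2.66) and *Anxa6* (7.29) were within WT. In library 18 *S100a6* (0.02), *Anxa6* (7.20), and *S100a10* (6.10) were within WT.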

How the results depend on the processing

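No called value of the 10 genes reversed its sign under any alternative. For the other named genes this held under the alternatives other than leaving out single libraries, which was run for their counts alone. The number of the 10 genes called higher at day 3 was 1 with only the groups of that day (3 in the analysis reported). At day 21 it was 5 without TMM, 4 with single-day fits, and 4 with DESeq2 (2 reported). The 1 gene with a day effect in HNKO became 0 with every counted gene tested, with all 40 libraries, with the library number range as a covariate, and without TMM. Without TMM the calls over days were 6 in place of 3 for the other family genes and 44 in place of 23 for partner and membrane repair genes. Leaving out 1 library gave 1 to 5 calls at day 3, 6 to 7 at day 6, 2 to 5 at day 12, and 0 to 4 at day 21, with 0 at day 21 without library 37, 4 without HNKO library 23 of day 3 or 29 of day 6, 1 at day 3 without HNKO library 2, 5 without WT library 26, and 2 at day 12 without WT library 33. It gave 0 to 1 day effects in HNKO, 0 to 0 in WT and for the interaction, 2 to 3 calls of other family genes, and 19 to 27 of partner genes. The cause was not tested.

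Over all genes 945, 2596, 1588, and 634 were called at the 4 days. DESeq2 called 1428 at day 3 and 994 at day 21, all 40 libraries gave 331, 1321, 624, and 1350, single-day fits 420 at day 3, 1325 at day 6, and 867 at day 12, testing every counted gene 630 at day 3, and no TMM 1792 at day 3 and 1212 at day 21. Leaving out 1 library gave 322 to 1668 calls at day 3 (lowest without HNKO library 23, highest without HNKO library 22), 1126 to 3027 at day 6 (lowest without HNKO library 29), 852 to 1773 at day 12 (lowest without WT library 15), and 13 to 915 at day 21 (lowest without HNKO library 37), so the shares of all genes called move with single libraries. The count also moved by over 1.5 times without HNKO libraries 2 (331), 3 (443), or 4 (1473) or WT libraries 5 (520), 24 (535), or 25 (373) at day 3, without WT library 8 (1638) or 10 (1666) at day 6, without HNKO library 13 (929) or WT library 33 (990) at day 12, and without WT library 19 (277), 20 (387), 21 (398), or 41 (318) at day 21. Without TMM the median of all genes shifted to 0.18, 0.20, 0.19, and 0.19, and the calls split into 1657 higher and 135 lower (598 and 347 reported), 2948 and 223 (1709 and 887), 2124 and 150 (925 and 663), and 1156 and 56 (448 and 186). Single-day fits did not test *S100a4* at 2 days. No paired analysis was possible because library numbers are unique. Low counts limit *S100a4* and *S100a11*, and low WT counts limit *S100a8*, *S100a9*, *Plat*, *Plaur*, and *Cftr*.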
